A study of Danio rerio with 8 samples.

Results

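The genes described here are the zebrafish apolipoproteins apoa1a, apoa1b, apoa2, apoa4b.1, apoba, apobb.1, apoc1, apoea and apoeb, together with mttp, which encodes the microsomal triglyceride transfer protein. They were taken by name from the table of the series, and 10 of its 32520 genes matched. The gene apoba is listed under the human-style symbol APOB (ENSDARG00000042780), and the other 9 under their own names. Values are TPM, the share of a library's transcripts that a gene holds after correction for its length, so levels can be compared between genes. RNA came from whole, untreated larvae 2 days old. In 4 libraries the larvae were maternal zygotic homozygous for nphp8(sa24730), so mother and larva both carried the mutant allele, and 4 libraries came from controls. The controls have a wild-type genotype in the labels and are called siblings in the design text. The genotype of the mothers of the controls is not stated. A homozygous mutant mother passes a mutant allele to every larva, so controls that are wild type had other mothers than the mutants. The 2 descriptions therefore cannot both hold for larvae of the same mothers. Because a mutant larva here also had a mutant mother, the part of the mother's genotype and that of the larva's cannot be told apart from these samples. If the controls had other mothers, differences between parents or clutches cannot be told apart from genotype either. How many larvae or clutches a library pooled is not stated, so the p-values measure only the spread between these libraries, which may be technical.

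A zebrafish larva of this age does not feed and lives on its yolk. The yolk syncytial layer, a multinucleate layer around the yolk, packs yolk lipid into lipoprotein particles and secretes them into the circulation. Each such particle is built on a molecule of ApoB, which Mttp loads with lipid in the endoplasmic reticulum, while the smaller apolipoproteins of the A, C and E types sit on the particle surface, move between particles, and serve as ligands or regulators of enzymes.

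The mutated gene, which encodes a protein of the ciliary transition zone and is listed under its other name RPGRIP1L (ENSDARG00000051754), was lower in every mutant library, at 0.75, 0.72, 0.77 and 0.78 TPM in mutants against 2.75, 2.6, 2.26 and 2.17 TPM in controls (exact permutation test, two-sided, p = 0.0286, the smallest that 4 against 4 libraries allow). Depth is unknown, because TPM hold no read counts. All 7 genes used to check the tissue were present in all libraries, from the lens crystallin CRYAA at the lowest mean to the keratin krt4 at the highest. Not all were level between the groups, with 4 higher and 1 lower in mutants at a limma adjusted p under 0.05. That is 71.4%, against 22.6% of all genes tested, a difference that was not tested. CRYAA averaged 9.04 TPM in mutants and 4.055 TPM in controls, and the muscle gene ckma rose 1.25-fold. The hatching enzyme gene he1.1 fell to a ratio of 0.882. The red cell globin hbae3 averaged 8107 TPM in mutants and 4492 TPM in controls, a share that every other gene of a library is measured against. The median log2 change of all genes was -0.01 as deposited and 0.01 when libraries were rescaled to their less abundant nuclear genes.

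Apolipoprotein transcripts were among the most abundant of the larva, and their totals overlapped between the groups. The HDL (high-density lipoprotein) gene apoa2 ranked between place 9 and place 12 of all genes in every library. The 10 genes together summed to 22679, 22666, 23160 and 22573 TPM in mutant replicates 1 to 4, against 22427, 22561, 22592 and 22819 TPM in control replicates 1 to 4. These sums make up 2.26% to 2.32% of the TPM of a library in mutants and 2.24% to 2.28% in controls. The mean summed TPM of the members differed by 170, mutants above controls, which became 40.0 without mutant replicate 3 and 435.5 after median-of-ratios rescaling and 533.4 after rescaling without mitochondrial and the 50 most abundant genes. Within the total, apoa2 held 30.5% ± 0.319 in mutants and 30.1% ± 0.732 in controls (SD, n = 4 each). The gene mttp, which encodes a lipid transfer protein rather than a particle protein, held 0.0786% ± 0.00229 in mutants and 0.0883% ± 0.00235 in controls.

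The order of the levels was apoa2, apoa1a, apoa1b, apoc1, apoeb and apoa4b.1 in both groups, with apoba and mttp at the lower end in both. Between those, apoea stood above apobb.1 in mutants (339.5 against 278.1 TPM) and apobb.1 above apoea in controls (330.8 against 282.9 TPM). No 2 neighbours in either order had overlapping ranges over the 4 libraries of a group.

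All 10 genes passed the filter, a mean of 1 TPM or more over the 8 libraries. Of these, 3 rose (apoea, apoa4b.1 and apoeb), 3 fell (apobb.1, mttp and apoc1) and 4 did not pass the test (apoba, apoa1a, apoa1b and apoa2). Among all 16560 genes tested, 22.6% were called at an adjusted p under 0.05, 9.32% higher and 13.3% lower. The excess of lower calls depended on the scaling, with 1543 higher and 2202 lower as deposited, 1825 and 1927 after median-of-ratios rescaling, and 1843 and 1789 after rescaling without mitochondrial and the 50 most abundant genes. Of the 1011 genes whose mean reached 100 TPM, a level chosen after the values were seen and exceeded by 8 of the 10 genes, 47.6% were called, so 6 calls among 10 is near the share for genes this abundant. The median log2 change of the 10 genes was 0.05, against -0.03 for the 1011 abundant genes and -0.01 over all genes tested. The median absolute log2 change was 0.08 for the 10 genes, 0.09 for the 1011 and 0.11 over all genes tested. The ranges of both groups were apart for 7 of the 10 genes, against 26.1% of all genes tested. That share was not taken for genes reaching 100 TPM, so the comparison is not matched for abundance. In these whole-larva samples, fewer cells of a type and less RNA per cell cannot be told apart.

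**Figure D1:**
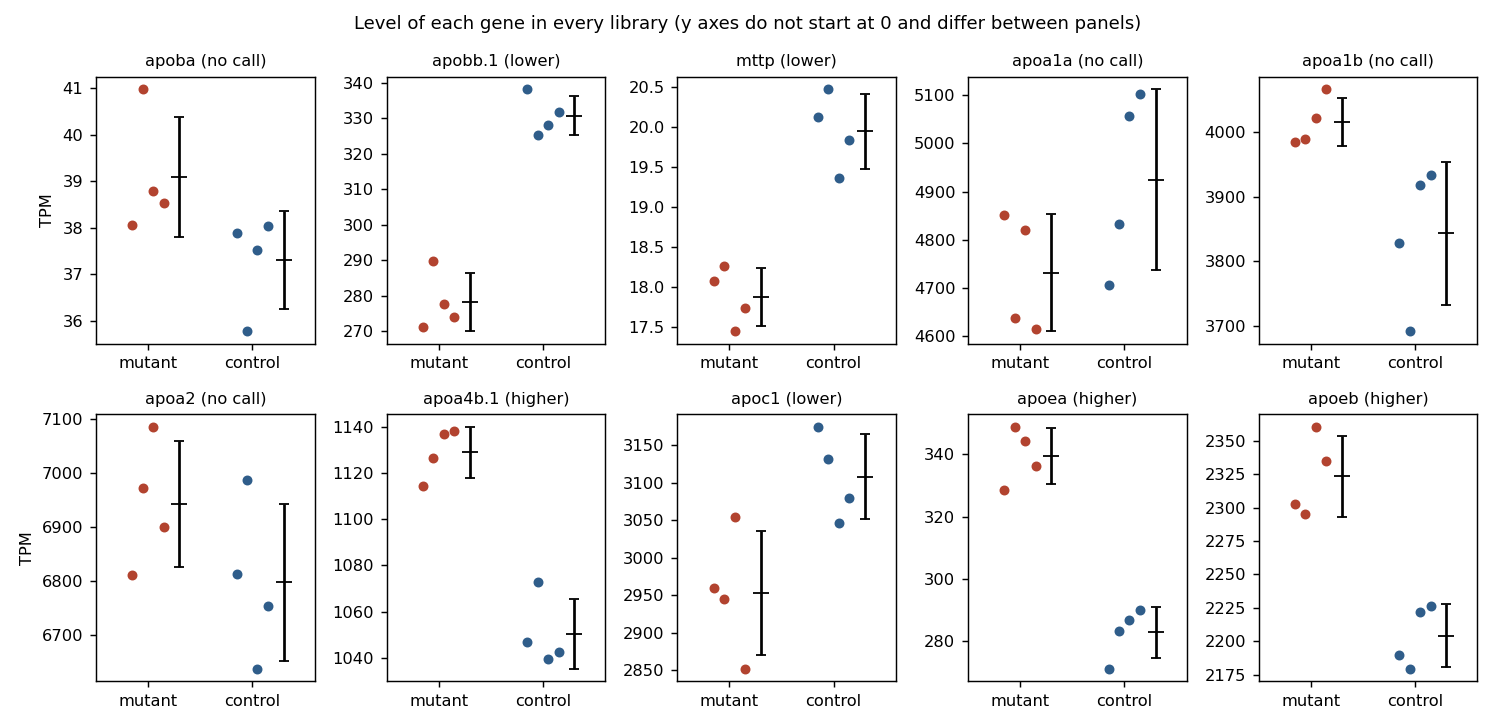
TPM of each of the 10 genes in the 4 mutant and 4 control libraries (dots), with the mean and SD beside them and the limma call in the panel title. The groups are apart for apoba, apobb.1, mttp, apoa1b, apoa4b.1, apoea and apoeb and overlap for apoa1a, apoa2 and apoc1.

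Of the 3 genes that build the ApoB particle, 2 fell and 1 did not pass the test. The transcript of apobb.1 (ENSDARG00000022767), an ApoB copy, stood at 271.1, 289.8, 277.6 and 274 TPM in mutant replicates 1 to 4, against 338.2, 325.2, 328 and 331.7 TPM in control replicates 1 to 4. Every mutant library lay below every control, and the level fell to 278.1 ± 8.24 TPM in mutants, against 330.8 ± 5.61 TPM in controls (SD, n = 4 each). The ratio of the means was 0.841, and the log2 change was -0.25 (SE 0.0254, limma adjusted p = 0.000109), the largest decrease of the 10.

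The other member of this step, mttp (ENSDARG00000008637), loads ApoB with triglyceride, and zebrafish without it keep their yolk lipid undelivered. It stood at 18.1, 18.3, 17.4 and 17.7 TPM in mutants, against 20.1, 20.5, 19.4 and 19.8 TPM in controls, again with no overlap. The fall was smaller than that of apobb.1, to a ratio of 0.896 (log2 change -0.15, SE 0.0343, limma adjusted p = 0.0118).

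The other ApoB copy, apoba, was not called in either direction. It stood at 38.1, 41, 38.8 and 38.5 TPM in mutants, against 37.9, 35.8, 37.5 and 38 TPM in controls. The mutant libraries lay just above the controls, by a gap smaller than the spread within either group, and the change did not pass (log2 change 0.07, 95% interval -0.01 to 0.14, limma adjusted p = 0.203). A further copy, apobb.2 (ENSDARG00000075016), which is not among the 10, averaged 18.7 ± 1.07 TPM in mutants and 16.3 ± 0.335 TPM in controls and rose (limma adjusted p = 0.0134).

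The difference between the ApoB copies was itself tested as the ratio of apobb.1 to apoba within each library, a quantity that does not depend on how libraries are scaled, apart from the pseudocount in the test. That ratio was 7.12, 7.07, 7.15 and 7.11 in mutants, against 8.93, 9.09, 8.74 and 8.72 in controls. The mutant values lay within a narrow band well below the controls, and the log2 ratio differed by -0.32 (exact permutation test, two-sided, p = 0.0286; adjusted over the 3 pairs of copies p = 0.0286, the smallest possible here). RSEM estimates how reads shared by similar copies are divided, so the levels of the copies, and all ratios of copies, carry an error that is not known here.

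Of the 4 genes for proteins of high-density lipoprotein, 1 rose and 3 did not pass. The gene apoa1a (ENSDARG00000012076), a copy of the main structural protein of HDL, stood at 4852, 4639, 4821 and 4616 TPM in mutants, against 4706, 4833, 5056 and 5103 TPM in controls. The groups overlapped, and the log2 change was -0.06 (95% interval -0.12 to 0.01, limma adjusted p = 0.197).

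Its duplicate apoa1b (ENSDARG00000101324) had the opposite sign, at 3985, 3990, 4022 and 4067 TPM in mutants, against 3829, 3691, 3919 and 3934 TPM in controls. All mutant libraries lay above all controls, but the change did not pass over all genes (log2 change 0.06, 95% interval 0.01 to 0.11, limma adjusted p = 0.0666). It passed when libraries were rescaled without mitochondrial and the 50 most abundant genes (log2 change 0.09, limma adjusted p = 0.0224).

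Set against each other, the copies did differ in their change. The ratio of apoa1a to apoa1b was 1.22, 1.16, 1.2 and 1.14 in mutants, against 1.23, 1.31, 1.29 and 1.3 in controls, so the excess of apoa1a was smaller in every mutant library than in any control. The log2 ratio differed by -0.12 (exact permutation test, two-sided, p = 0.0286; adjusted over the 3 pairs p = 0.0286).

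The most abundant of the 10, apoa2 (ENSDARG00000015866), which encodes the second protein of HDL, stood at 6811, 6973, 7087 and 6900 TPM in mutants, against 6814, 6987, 6637 and 6753 TPM in controls. The groups overlapped, and the interval of the log2 change ran from -0.02 to 0.08 (limma adjusted p = 0.324). In contrast, apoa4b.1 (ENSDARG00000040298), an ApoA-IV gene whose mammalian counterpart is secreted on triglyceride-rich particles as well as HDL, stood at 1114, 1126, 1137 and 1138 TPM in mutants, against 1047, 1073, 1040 and 1043 TPM in controls. It rose 1.07-fold with no overlap (log2 change 0.10, SE 0.0179, limma adjusted p = 0.0027). The call held in all 17 alternative fits, though its limma adjusted p went up to 0.04995.

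Of the ApoE copies, ligands of the low-density lipoprotein receptor family, both rose. The smaller transcript, apoea (ENSDARG00000102004), stood at 328.5, 348.9, 344.2 and 336.2 TPM in mutants, against 271.2, 283.3, 286.9 and 290.2 TPM in controls. It had the largest increase of the 10, 1.2-fold (log2 change 0.26, SE 0.028, limma adjusted p = 0.000147).

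The more abundant apoeb (ENSDARG00000040295), known in zebrafish as a marker of both the yolk syncytial layer and microglia, stood at 2303, 2295, 2361 and 2335 TPM in mutants, against 2189, 2179, 2222 and 2226 TPM in controls. It rose 1.05-fold (log2 change 0.08, SE 0.0172, limma adjusted p = 0.0114), and the call was lost when the variance was fitted without a mean-variance trend (limma adjusted p = 0.126). In TPM the difference of the means was 119 for apoeb and 56.6 for apoea. The ratio of apoea to apoeb was 0.143, 0.152, 0.146 and 0.144 in mutants, against 0.124, 0.13, 0.129 and 0.13 in controls, a log2 difference of 0.19 (exact permutation test, two-sided, p = 0.0286; adjusted over the 3 pairs p = 0.0286).

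**Figure D2:**
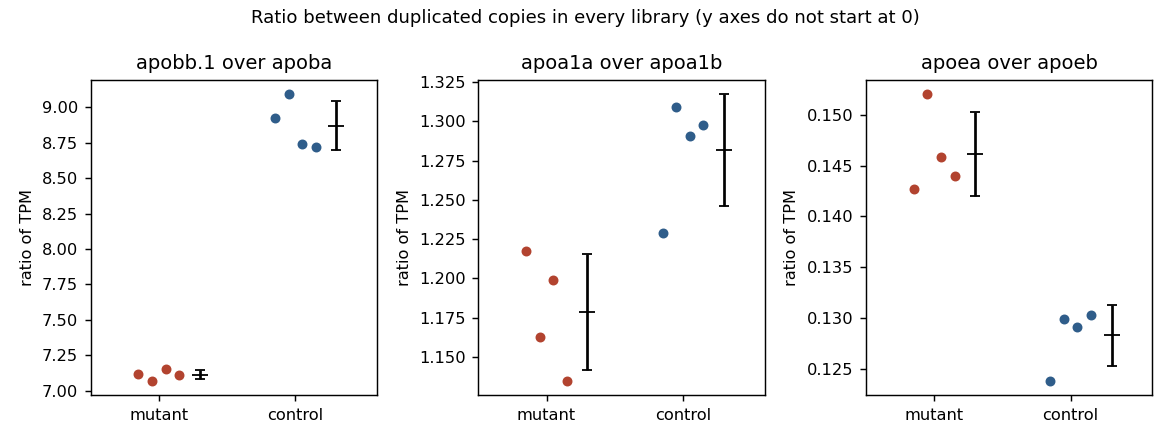
Ratio of TPM between duplicated copies in each of the 4 mutant and 4 control libraries (dots), with the mean and SD beside them. For all 3 pairs the mutant and control ratios are apart, lower in mutants for apobb.1 over apoba and apoa1a over apoa1b and higher for apoea over apoeb.

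The C-type gene apoc1 (ENSDARG00000092170), whose mammalian product inhibits lipoprotein lipase and the cholesteryl ester transfer protein, stood at 2959, 2944, 3054 and 2852 TPM in mutants, against 3175, 3132, 3046 and 3079 TPM in controls. Mutant replicate 3 lay above control replicate 3, so the groups overlapped. The call was marginal, a fall to a ratio of 0.95 (log2 change -0.07, SE 0.0236, limma adjusted p = 0.0477), and it was lost in 12 of 17 alternative fits, among them those leaving out mutant replicate 1, 2 or 4 or any control. Over all 17 the log2 change stayed between -0.09 and -0.05, with an adjusted p from 0.0228 to 0.196.

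Several of these genes are neighbours, so the changes could be read along the chromosome. In the gene order of the GRCz12tu assembly from RefSeq, which is not the build of the values and was used for order alone, apoa4b.1, apoa4b.3, apoa4b.2, apoeb, apoc1, apoc4, apoa2 and apoc2 follow each other in this order, with 2 genes of placeholder name between the apoa4b copies. Along this run apoa4b.1, apoeb and apoc2 rose, apoa4b.2 and apoc1 were called lower, and apoa2 and apoa4b.3 did not pass. The gene apoc4 was below the filter. The call of apoa4b.2 (ratio 0.922, limma adjusted p = 0.0471) was as marginal as that of apoc1 and was lost in 12 of 17 alternative fits, those without any mutant library or without control replicate 1, 3 or 4 among them.

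**Figure D3:**
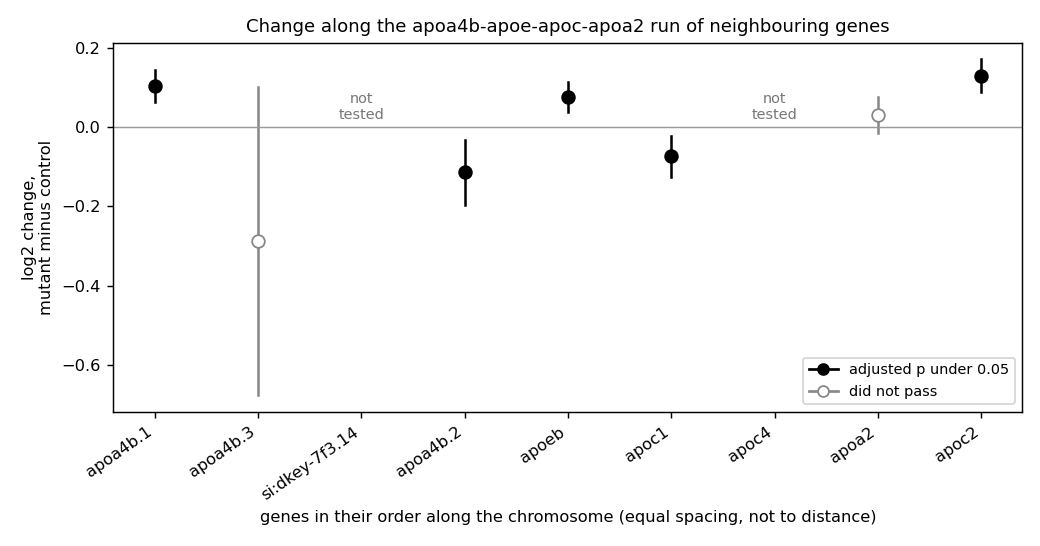
Log2 change (mutant minus control) of neighbouring apolipoprotein genes in their chromosomal order, with 95% intervals from limma. Filled points, adjusted p under 0.05, lie on both sides of 0, with apoa4b.1, apoeb and apoc2 above and apoa4b.2 and apoc1 below.

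The lipase cofactor gene apoc2 at the end of the run was one of the clearer increases, at 854.3, 858.9, 886.5 and 863.6 TPM in mutants, against 792.4, 798.3, 786.6 and 788.7 TPM in controls (limma adjusted p = 0.000849). At another place apoea lies next to apoa4a (ENSDARG00000101160), and the 2 moved apart. The level of apoa4a fell to 64.5 ± 1.91 TPM in mutants, against 76 ± 3.93 TPM in controls (SD, n = 4 each; limma adjusted p = 0.00256), while apoea rose.

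Ratios between neighbours are given for 3 pairs as a description with no test, since the pairs were chosen after their members were seen to differ in direction. The ratio of apoea to apoa4a averaged 5.26 ± 0.144 in mutants and 3.73 ± 0.209 in controls, that of apoeb to apoc1 averaged 0.787 ± 0.0211 in mutants and 0.709 ± 0.0197 in controls, and that of apoeb to apoa4b.2 averaged 7.05 ± 0.162 in mutants and 6.18 ± 0.307 in controls (SD, n = 4 each). The split of shared reads among the apoa4b copies is uncertain in the same way as for the ApoB copies.

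Apolipoproteins beyond the 10 were likewise mixed. Of 12 gene IDs matched, 10 were tested. Increases passed for 3 and decreases for 2, 50% called against 22.6% of all genes tested, a difference that was not tested. Their median log2 change was -0.05. The lipocalin gene apoda.1 rose 1.26-fold to 9.49 ± 0.686 TPM in mutants, against 7.55 ± 0.334 TPM in controls (limma adjusted p = 0.00536). With apobb.2 and apoc2 it makes up the increases, and apoa4a and apoa4b.2 make up the decreases. The sphingosine carrier gene apom, at a ratio of 1.08, did not pass (limma adjusted p = 0.0626).

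**Figure D4:**
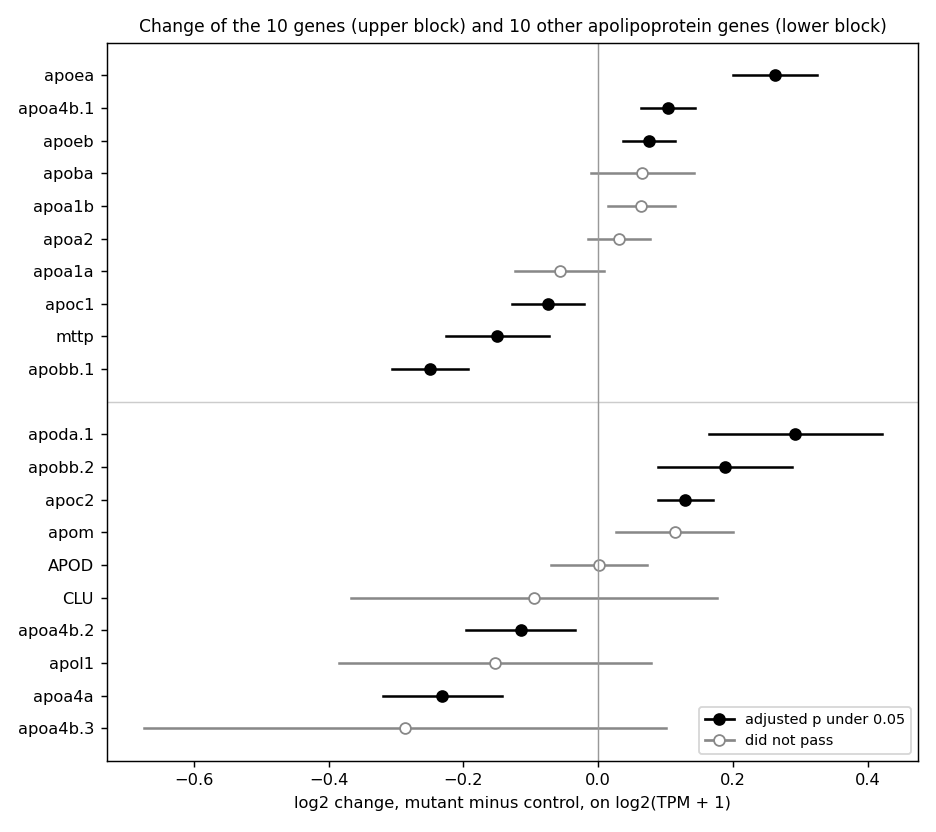
Log2 change (mutant minus control) with its 95% interval from limma for the 10 genes in the upper block and 10 other tested apolipoprotein genes in the lower block. The changes run from apobb.1 at -0.25 to apoea at 0.26 in the upper block, and filled points passed an adjusted p of 0.05.

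Genes that work beside ApoB and Mttp in making and secreting the particle were called in both directions. Of 20 tested, 3 rose and 9 fell, where 9.32% and 13.3% of all genes tested did so, a difference that was not tested. Their median log2 change was -0.09, against -0.01 over all genes tested. Without mutant replicate 1 there were 6 calls, 4 of them lower, and without mutant replicate 4 or control replicate 4 there were 5 lower calls. PLA2G12B, which in zebrafish is needed to load the particles with lipid, stood at 211.9, 227.3, 221.5 and 211 TPM in mutants, against 183, 182.8, 189.5 and 186.1 TPM in controls. It was the most abundant gene of the list and rose 1.18-fold with no overlap (limma adjusted p = 0.000355), the direction opposite to apobb.1 and mttp. It was named after its value was seen.

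Enzymes that make the lipid cargo differed from each other. The triglyceride synthesis gene DGAT2 averaged 12.7 ± 0.803 TPM in mutants and 9.21 ± 0.813 TPM in controls and rose 1.38-fold (limma adjusted p = 0.00134). The cholesteryl ester synthesis gene SOAT1, near the filter, rose 1.52-fold to 1.57 ± 0.165 TPM in mutants, against 1.03 ± 0.137 TPM in controls (limma adjusted p = 0.0183), and that call was lost without mutant replicate 1 or 3 and with the replicate block. MOGAT2, which makes diacylglycerol, fell to 1.89 ± 0.241 TPM in mutants, against 3.05 ± 0.268 TPM in controls (limma adjusted p = 0.00259). A DGAT1 copy (ENSDARG00000054914) had a ratio of 0.765 and a marginal lower call (limma adjusted p = 0.0488), which 12 of 16 alternative fits lost, among them those without mutant replicate 1, 3 or 4 or control replicate 2, 3 or 4. The other DGAT1 copy (ENSDARG00000103503) had a ratio of 1.38, with all mutant libraries above all controls, and did not pass (limma adjusted p = 0.0694).

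The other 7 that fell were P4HB, mia2, mia3, SEC24D, sec23a, SURF4 and cideb, named after their values were seen. Except for cideb, these encode folding, coat and cargo proteins of the endoplasmic reticulum that serve many secreted proteins besides ApoB. P4HB, the protein disulphide isomerase that is also the partner subunit of Mttp, fell to 62.1 ± 3.54 TPM in mutants, against 71.3 ± 2.04 TPM in controls (limma adjusted p = 0.00762). The cargo receptor mia3 fell to a ratio of 0.828 (limma adjusted p = 0.00244). The calls of mia2, sec23a and SURF4 were each lost without mutant replicate 1, without mutant replicate 4 and without control replicate 4, among other fits. That of cideb was lost without mutant replicate 1 or 2 or control replicate 2 or 3. A second surf4 copy (ENSDARG00000104647) had a ratio of 1.00 and did not pass.

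**Figure D5:**
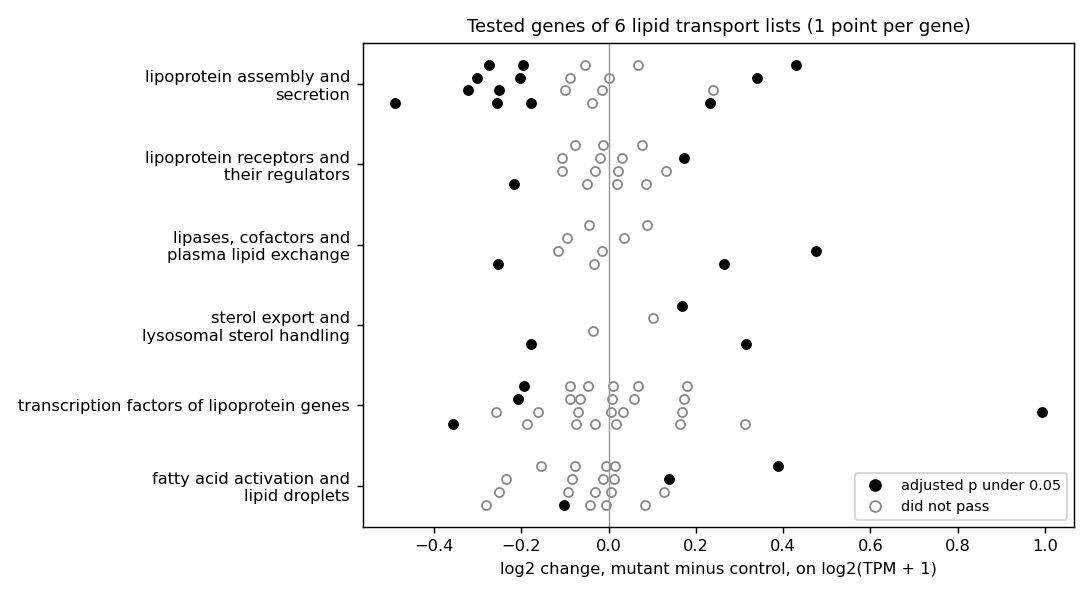
Log2 change (mutant minus control) of each tested gene in 6 lists of lipid transport genes, 1 point per gene, filled where the adjusted p was under 0.05. Calls lie on both sides of 0 in every list, and NR0B2 stands alone at 0.99.

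Genes that act on circulating particles were called for a few members. Of 10 tested genes for lipases, their cofactors and lipid exchange, 2 rose and 1 fell. That was 30% called, against 22.6% of all genes tested. CETP, which exchanges cholesteryl ester between particles, stood at 8.73, 7.8, 7.63 and 9.13 TPM in mutants, against 5.77, 5.55, 5.83 and 5.63 TPM in controls, a 1.46-fold rise with no overlap (limma adjusted p = 0.000479). The lipase inhibitor gene ANGPTL4 fell to a ratio of 0.833 (limma adjusted p = 0.0038). The lipoprotein lipase gene LPL (ENSDARG00000087697) averaged 20.3 ± 0.298 TPM in mutants and 20.6 ± 1.13 TPM in controls and did not pass.

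Receptors and their regulators were called in 2 of 15 cases, 13.3%, against 22.6% of all genes tested. VLDLR, a receptor for ApoE-bearing particles, rose 1.14-fold to 9.78 ± 0.239 TPM in mutants, against 8.57 ± 0.303 TPM in controls (limma adjusted p = 0.019), a call lost without control replicate 4 and with the replicate block. LRPAP1, the chaperone of this receptor family, fell to a ratio of 0.857 (limma adjusted p = 0.00298). Of 5 tested genes for sterol export and lysosomal sterol handling, 2 rose and 1 fell, where 9.32% and 13.3% of all genes tested did so. A copy of the ApoA-I lipidation pump gene, ABCA1 (ENSDARG00000074635), and the lysosomal lipase gene LIPA rose 1.33-fold and 1.13-fold, and NPC2 fell to a ratio of 0.884 (limma adjusted p = 0.00595, 0.0101 and 0.000713). The more abundant pump copy abca1b, named after its value was seen, averaged 12.9 ± 0.795 TPM in mutants and 13.2 ± 0.65 TPM in controls. It did not pass (limma adjusted p = 0.667).

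Among 26 tested transcription factors of lipoprotein genes, 1 rose and 3 fell, 15.4% called against 22.6% of all genes tested. NR0B2, a nuclear receptor without a DNA-binding domain that represses other nuclear receptors in mammals, stood at 28.4, 26.2, 27.9 and 26.6 TPM in mutants, against 13.6, 12.8, 12.7 and 13.6 TPM in controls. It rose 2.07-fold (log2 change 0.99, SE 0.0409, limma adjusted p = 2.43e-07), far more than any of the 10 genes. HNF4A, an activator of apolipoprotein genes, averaged 2.8 TPM in both groups (± 0.307 in mutants and ± 0.627 in controls) and did not pass, whereas its relative hnf4b fell to a ratio of 0.719 (limma adjusted p = 0.0145). The calls of foxa3 (ratio 0.849, adjusted p = 0.0307) and rxrgb (ratio 0.853, adjusted p = 0.0425) were lost in 6 and 11 of 17 alternative fits by limma, in both cases without mutant replicate 2 or 4 or control replicate 1, 3 or 4. The list had 2 calls without mutant replicate 2 or 4 or without control replicate 1 or 4.

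For fatty acid activation and lipid droplets, 2 of 20 tested genes rose and 1 fell, 15% called against 22.6% of all genes tested. The transporter gene SLC27A6 rose 1.5-fold to 2.39 ± 0.217 TPM in mutants, against 1.6 ± 0.275 TPM in controls (limma adjusted p = 0.0145). ACSL3 (ENSDARG00000014674), which activates fatty acids, had a ratio of 1.11 and slc27a2a, a yet more abundant transporter, a ratio of 0.931 (limma adjusted p = 0.0204 and 0.0345). The less abundant copy acsl3a, named after its value was seen, had a ratio of 0.798, with all mutant libraries below all controls. It did not pass (limma adjusted p = 0.0643). Without control replicate 4 SLC27A6 alone was called. The call of ACSL3 was also lost without mutant replicate 3 or control replicate 2, and that of slc27a2a without mutant replicate 1, 2 or 4 or control replicate 1 or 3.

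Markers of the tissues that could supply these transcripts moved too, and their part in the results was not tested. Of 8 tested hepatocyte markers 5 rose and 0 fell, where 9.32% of all genes tested and 19.1% of those reaching 100 TPM rose. The summed level of all 11 markers of the list, 3 of them below the filter, was 1350 to 1382 TPM in mutants and 1189 to 1239 TPM in controls. The largest part of it was tfa, which averaged 737.3 TPM in mutants and 652.5 TPM in controls. FGB, a fibrinogen chain, rose 1.24-fold (limma adjusted p = 0.000113). The defining liver marker fabp10a was listed at 0 in 7 of 8 libraries and at 0.26 TPM in mutant replicate 3. Of 7 tested markers of the yolk syncytial layer 28.6% were called, against 22.6% of all genes tested. The gene tfa, shared with the liver list, rose 1.13-fold and SLC40A1 fell to a ratio of 0.894 (limma adjusted p = 0.000434 and 0.0193), the latter a call lost without control replicate 1 or 4. The summed level of this list was 785.6 to 799.9 TPM in mutants and 689.9 to 727.8 TPM in controls, nearly all of it tfa, and its early marker mxtx2 was at 0 to 0.13 TPM in mutants and 0 to 0.12 TPM in controls.

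Calls among enterocyte and macrophage markers were all lower, and most of these markers were below the filter or did not pass. Of 4 tested enterocyte markers 2 fell, where 13.3% of all genes tested and 28.5% of those reaching 100 TPM did so. FABP2 and FABP1 (ENSDARG00000059227) fell to ratios of 0.735 and 0.92 (limma adjusted p = 9.83e-06 and 0.00183). All 11 gene IDs of the list summed to 2219 to 2315 TPM in mutants and 2502 to 2585 TPM in controls. Nearly all of this was FABP1, which averaged 1990 TPM in mutants and 2163 TPM in controls, and FABP2, at 258 and 351.3 TPM. CDH17, at 24.6 TPM in mutants and 25.5 TPM in controls, and an ANPEP copy (ENSDARG00000036809, ratio 1.07) did not pass. The villin gene VIL1 was under 1 TPM on average in both groups. Of 9 tested macrophage and microglia markers, 3 fell and 0 rose, where 13.3% and 9.32% of all genes tested did so. The sum over all 21 gene IDs of the list, 12 of them below the filter, was 103.6 to 112.5 TPM in mutants and 127.3 to 144.5 TPM in controls. The gene apoeb, which microglia also express, rose. The 3 that fell were 2 MFAP4 copies (ENSDARG00000090783 at a ratio of 0.579 and ENSDARG00000090557 at 0.673) and LCP1 (0.852), with limma adjusted p-values of 5.11e-05, 0.0017 and 0.0105. The first of these copies differed by -20.3 TPM, most of the difference in the sum, while another abundant MFAP4 copy (ENSDARG00000088745) averaged 43.7 ± 1.58 TPM in mutants and 42.0 ± 2.46 TPM in controls and did not pass.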

How the data were processed

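Total RNA of whole larvae was sequenced in 8 libraries, 4 mutant and 4 control. The submitters' processing notes name STAR 2.7.3a, RSEM 1.3.1 and GRCz11; strand and annotation are not given in the sources used here. The authors deposited TPM for each Ensembl gene, to 2 decimals. Symbols came from a table that named 29201 of 32520 identifiers. Lists were matched by symbol, RefSeq synonym or symbol without copy letter.

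Across all 16560 genes whose mean over the libraries reached 1 TPM, limma 3.58.1 (R 4.3.3; lmFit, eBayes with trend, two-sided) was fitted to log2(TPM + 1), with Benjamini-Hochberg adjustment and calls at an adjusted p under 0.05. Fold changes and ratios are of mean TPM, mutant over control, and log2 changes are on the log2(TPM + 1) scale, which understates changes of low genes. The limma step was tested on simulated data. Ratios of copies were compared by exact permutation over 70 assignments (SciPy 1.17.1).

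The 10 genes and all lists were chosen with earlier results of these data known. All 10 are named. Of each other list the up to 4 called genes with the largest absolute log2 change, and any called at 1 or more, are named. Neighbours of the 10 genes are named by their position where they are themselves apolipoprotein genes, and genes of like pattern by their correlation. Any other named list gene counts as chosen after its value was seen. That holds also where it is not said, as for apom, LPL, HNF4A and the second copies of DGAT1 and surf4. Markers outside these rules are given by level. Groups and replicate numbers came from the sample titles. One result covered by this rule is not reported here.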

Additional observations from a re-analysis of the deposited data

How the results depend on the processing

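Across 17 alternative fits (pseudocounts of 0.1 and 5, no filter, a mean of at least 5 TPM, 3 rescalings, no variance trend, the replicate block, and each library left out), 7 of the 10 genes kept their direction and side of the threshold in all fits, apoc1, apoeb and apoa1b being the exceptions given above, and 0 changed sign. Of these 7, apoba, apoa1a and apoa2 were called in no fit, and apoa4b.1 came as near the threshold as a limma adjusted p of 0.04995. Of 48 other called list genes, 34 kept their call in every fit that tested them. Leaving out a library gave 5 to 6 calls among the 10 genes and 2989 to 3254 calls over all genes tested. With the replicate block there were 5 calls, without apoc1, and 2932 calls over all genes tested, against 3745 without it. Same-numbered libraries did not deviate together (correlations -0.10 to -0.03). Whether libraries were paired is not stated, and these correlations cannot decide it. The difference in the summed TPM of the members, 170 as deposited, was 435.5 after median-of-ratios rescaling and 533.4 when rescaled without mitochondrial and the 50 most abundant genes. The difference in rpgrip1l level, -1.69 TPM, ran from -1.78 to -1.59 without each library in turn, where 3 against 4 cannot reach an exact permutation p under 0.0571. The cause of these changes was not tested. Depth is unknown, so the counting error of genes at a few TPM cannot be given.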

Other observations

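Yolk protein genes were all but silent in these larvae. The 8 vitellogenin genes, which the maternal liver transcribes, summed to 0.60 to 0.97 TPM in mutants and 0.59 to 0.93 TPM in controls, and none passed the filter.

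Within groups the 10 genes did not vary as a block. The correlations of their deviations from the group means over 8 libraries, which share library and scaling, had a median of 0.04 over 45 pairs, with 23 above 0. They ran from 0.89 for apoba with apobb.1, which moved together within groups although their change between groups differed, to -0.91 for mttp with apoeb. The genes whose deviations were most like the mean of the 10, among 7216 others with a mean of at least 10 TPM, were TPD52L2, foxi3b, inka1b, lgals3b and CMIP, with Pearson correlations of 0.98, 0.97, 0.95, 0.95 and 0.94 and Spearman correlations of 0.95, 0.88, 0.93, 0.90 and 0.98 over the 8 libraries. That mean deviated by only -0.01 to 0.01 on the log2 scale, so the likeness rests on very small differences. These genes were picked as the highest of 7216 correlations over 8 libraries. How high the best would run among unrelated genes was not tested.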
